A study of Mus musculus with 16 samples.

Results

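The genes described here encode voltage-gated and potassium ion channels, together with the subunits that accompany them, in cultured mouse cortical neurons. They were taken by name from the count table: symbols beginning with Kcn (potassium channels), Scn followed by a number and a or b (voltage-gated sodium channels), or Cacna1, Cacna2d and Cacnb (voltage-gated calcium channels). A symbol was a member if it had a count of at least 10 in at least 4 of the 16 libraries. Of 110 matching symbols, 87 were members, among 16934 genes in all: 65 Kcn, 7 Scn and 15 Cacn genes. The other 23, of which 17 were Kcn, 4 Scn and 2 Cacn symbols, had too few counts and are not described further. Just outside the rule, with 3 libraries at 10 counts, stood Kcnd1, Cacna2d4, Kcnmb2, Kcnrg, Kcnj2 and Kcnd3os, and just inside it, with 4, stood Kcnmb3, Kcns1, Kcnk12, Kcng2, Kcnab1 and Kcnc2 among others.

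The neurons were primary cortical cells of C57BL/6 mouse embryos taken at day 15 to 16 of gestation and kept for 14 days in culture. The 4 groups, of 4 libraries each, were neurons loaded with fluorescent α-synuclein fibrils at 0.1 µM over 16 h and then kept for 6 h with microglia (loaded co-cultures), untreated neurons kept for 6 h with microglia (untreated co-cultures), loaded neurons alone, and untreated neurons alone. α-Synuclein is the presynaptic protein that forms aggregates in Parkinson's disease, and microglia are the brain's own immune cells. The labels used here name no mutant or transgene in any group. They leave unsaid whether microglia were removed before RNA was taken, and whether libraries of a group stem from separate cultures, so p-values reflect library-to-library spread that may be technical only.

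Ion channels set how a neuron fires. Sodium channels, built from a pore-forming alpha subunit and smaller beta subunits, carry the rising phase of the action potential, potassium channels end it and hold the resting potential, and calcium channels couple it to transmitter release and to gene expression. In the cortex the pore genes of each family are mostly neuronal, with exceptions such as Kcnj10, whose inward rectifier Kir4.1 is the main potassium channel of astrocytes and is also made by oligodendrocyte lineage cells.

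Total counts ranged from 6511516 to 13986374 per library, and levels are given as CPM, the count of a gene scaled to library size, after TMM scaling, a correction for library composition. The counts come from the 3′ ends of transcripts and do not grow with gene length, so CPM needs no correction for length between genes. Whether the 3′ ends of different genes were captured equally well was not checked. The labelled cell type was checked with 11 neuron markers, whose summed level was 1144 to 2866 CPM in the 8 co-culture libraries and 1336 to 7215 CPM in the 8 libraries of neurons alone. The 9 excitatory neuron markers summed to 775 ± 655 CPM in co-cultures and 5570 ± 2554 CPM in neurons alone (SD, n = 8 each), with 9 of 9 lower and a median log2 change of −2.16. Inhibitory neuron markers summed to 76.3 ± 62.7 CPM in co-cultures and 189 ± 147 CPM in neurons alone, with 7 of 9 tested lower. Markers of other cells moved with the groups. The 16 oligodendrocyte lineage markers summed to 4368 to 10440 CPM in co-cultures and 1162 to 3160 CPM in neurons alone, without overlap. The 14 microglial markers summed to 11.4 to 1353 CPM in co-cultures and 4.92 to 50.4 CPM in neurons alone, with the top values of 1353 and 681 CPM in the 2 co-culture libraries numbered replicate 1, and the defining markers P2ry12 and Tmem119 at 0 in all 16 libraries. The 10 astrocyte markers summed to 986 to 6620 CPM in co-cultures and 2373 to 7691 CPM in neurons alone. These are bulk samples, so fewer neurons and less channel RNA per neuron cannot be told apart, and the part of any of these lists in the results below was not tested except where a value is given.

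The members spanned a wide range of levels. Of the 87, 33 were detected in every library and 31 had at least 10 counts in each of the 16, while 54 had a 0 in some library and 9 were at 0 in a whole group. Mean levels reached 20 CPM in 40 members and stayed under 5 CPM in 18. A further limit lies in the rule: 13 members had 4 libraries at 10 counts among neurons alone but not among co-cultures, and 2 the reverse, so counts of lower members lean on how members were admitted. In the annotation, 16 members share their last 1000 bases with another gene, in each case one on the opposite strand. The strand setting of the counting is not known, so whether that gene's reads were counted with the member's cannot be said.

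RefSeq promoters, covering 250 bases before to 50 bases after the annotated start (build GRCm38.p6), were at hand for 63 of the 87 members. The pair below belongs to the members with an entry that had the smallest p in the averaged microglia comparison in each direction, Cacna2d1 (lower in co-culture, chr5:15934441-15934740, plus strand) and Kcnd3 (higher in co-culture, chr3:105451640-105451939, plus strand). Capitals mark matches to the GC box GGGCGG on either strand.

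Cacna2d1: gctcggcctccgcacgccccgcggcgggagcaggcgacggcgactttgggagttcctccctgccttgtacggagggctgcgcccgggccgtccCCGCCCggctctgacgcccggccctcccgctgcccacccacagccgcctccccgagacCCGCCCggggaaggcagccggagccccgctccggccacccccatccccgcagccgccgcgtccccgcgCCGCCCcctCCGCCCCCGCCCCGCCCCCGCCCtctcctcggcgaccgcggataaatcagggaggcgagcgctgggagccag

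Kcnd3: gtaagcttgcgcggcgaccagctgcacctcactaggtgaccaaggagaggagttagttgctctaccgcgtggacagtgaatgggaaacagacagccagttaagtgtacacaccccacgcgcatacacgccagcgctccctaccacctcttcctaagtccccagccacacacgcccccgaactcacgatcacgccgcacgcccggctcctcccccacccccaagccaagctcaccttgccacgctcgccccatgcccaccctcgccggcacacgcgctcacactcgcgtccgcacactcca

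The Cacna2d1 window held 7 GC boxes in a sequence of 80.0% GC, and the Kcnd3 window held 0 in 64.0% GC. With the first listed promoter taken for each gene, 52.4% of the 63 member promoters held a GC box, against 35.9% over 27025 genes. By family, 25 of 47 Kcn, 8 of 12 Cacn and 0 of 4 Scn promoters held it. The cAMP response element half-site TGACG was in 25.4% of member promoters and 21.0% of all, and the CCAAT box, letters CCAAT, in 34.9% of member promoters and 37.9% of all. All searches covered both strands, and none of the 3 motifs contains another. A match is a run of letters in the window only.

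The first question was how channel transcripts in neurons differ when microglia are present. Genes of all 3 families mostly lay lower in co-culture by fitted value, with Cacna2d1, Cacnb3, Kcnq3 and Kcnab2 among those of smallest p, while Scn3a and Kcnd3 lay higher; none of the members described below passed the test. By the quasi-likelihood test of edgeR, with Benjamini-Hochberg adjustment over 13139 genes, 1 of 87 members (1.15%) was called at an adjusted p under 0.05 in the comparison averaged over fibril state, against 2.19% of all tested genes. That share is no higher than the background.

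Beta subunits of the sodium channel sit beside the pore and tune its gating. Scn2b, whose product is linked to the alpha subunit by a disulfide bond, averaged 7.34 ± 11.2 CPM in co-cultures and 27.8 ± 24.5 CPM in neurons alone, with a log2 change of −1.93 ± 1.30 and an adjusted p of 0.505 in edgeR; its 3′ end overlaps the non-coding gene Gm10684. Scn3b lay at 7.28 ± 8.43 CPM in co-cultures and 8.52 ± 9.88 CPM in neurons alone.

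**Figure D1:**
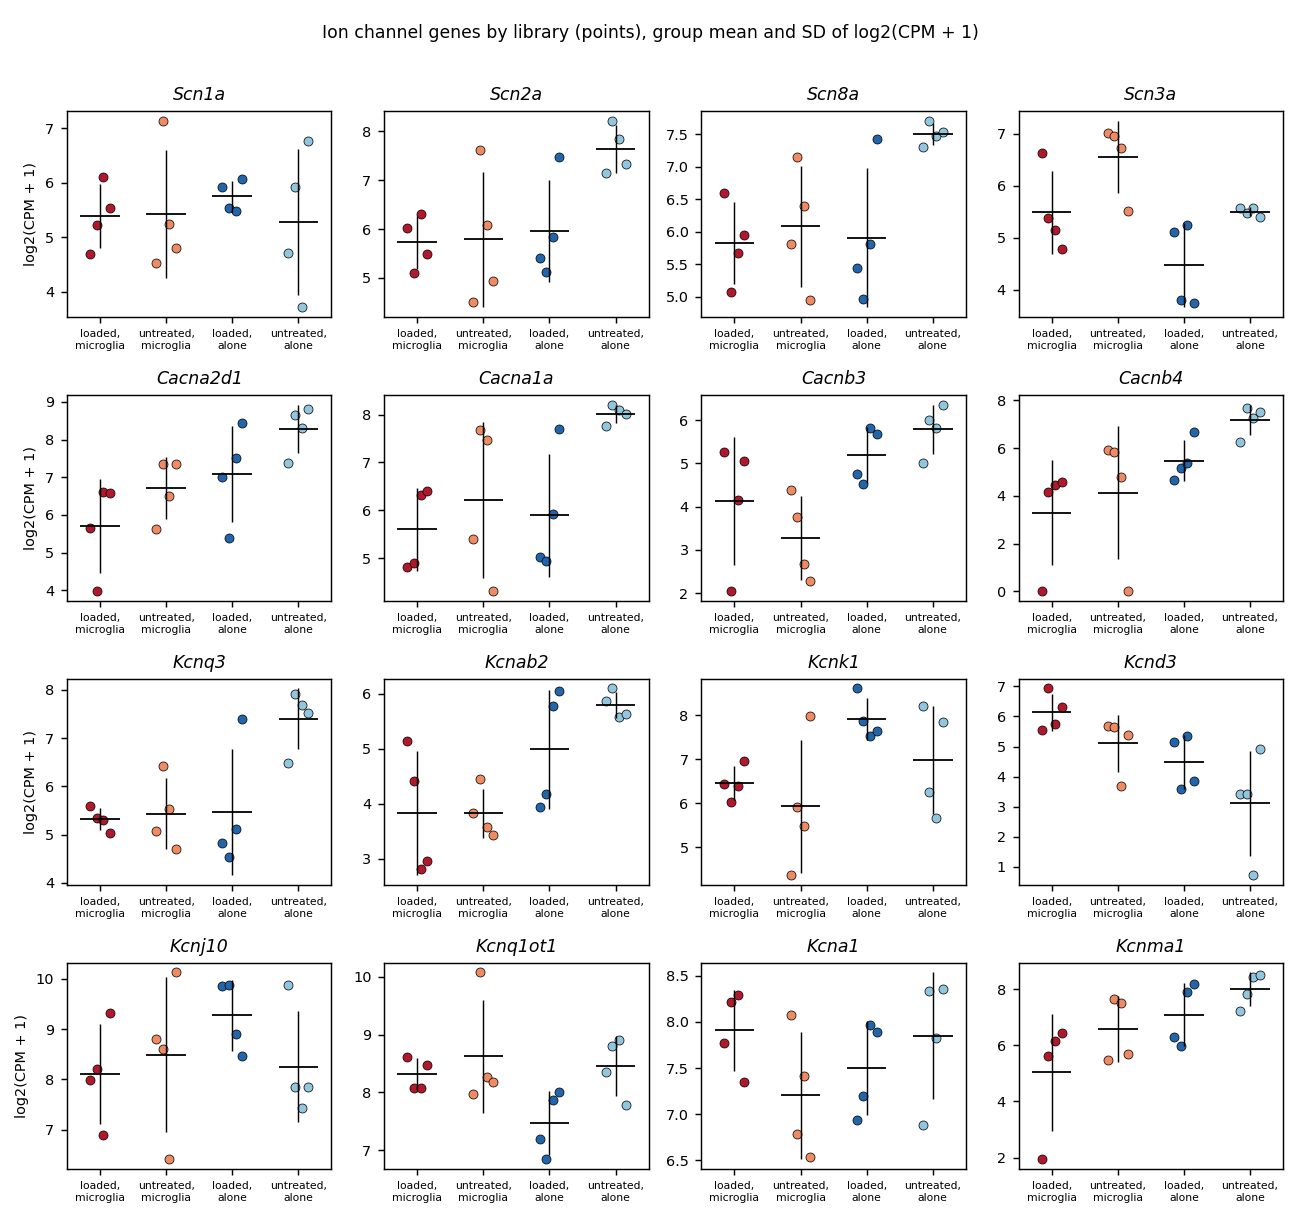
Levels of 16 channel genes, one panel each, as log2(CPM + 1) in each of the 16 libraries (points), with the group mean (bar) and SD (line); the axis range differs between panels. Cacna2d1 points of both co-culture groups lie mostly below those of neurons alone, Scn3a and Kcnd3 points mostly above, and Kcna1 points overlap throughout.

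The alpha subunits, which form the sodium pore, differed in fitted direction. Scn2a (Nav1.2, a main channel of excitatory axons in early life) had 63.9, 33.4, 77.8 and 43.9 CPM in loaded co-cultures, 21.9, 195, 67.2 and 29.5 CPM in untreated co-cultures, 41.6, 33.8, 56.4 and 176 CPM in loaded neurons alone, and 140, 298, 230 and 160 CPM in untreated neurons alone. Untreated neurons alone stood highest as a group, but 1 untreated co-culture and 1 loaded culture alone reached into their range. The log2 change in co-culture was −0.95 ± 0.43, with an unadjusted p of 0.0399 and an adjusted p of 0.277 in edgeR.

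Scn8a (Nav1.6, the channel of mature initial segments and nodes) had 96.2, 32.7, 50.1 and 60.7 CPM in loaded co-cultures, 55.4, 142, 83.7 and 29.9 CPM in untreated co-cultures, 42.3, 30.1, 55.3 and 171 CPM in loaded neurons alone, and 157, 209, 177 and 184 CPM in untreated neurons alone. All 4 untreated co-cultures lay below all 4 untreated cultures alone, while the loaded groups overlapped. The averaged log2 change was −0.77 ± 0.36, with an adjusted p of 0.281 in edgeR.

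Scn3a (Nav1.3, the channel of embryonic and newborn cortex) had a fitted change in the opposite direction, at 75.2 ± 42.5 CPM in co-cultures and 34.1 ± 13.9 CPM in neurons alone (SD, n = 8 each). Its lowest, median and highest values were 26.4, 71.5 and 128 CPM in co-cultures and 12.5, 38.9 and 46.5 CPM in neurons alone. The log2 change was 1.12 ± 0.36, with an adjusted p of 0.0987 in edgeR, so it was not called. With library totals in place of TMM, the Scn3a change was 1.32, with an adjusted p of 0.0367 in edgeR. That scaling shifts the median of all genes to 0.18 from −0.03. In DESeq2 the Scn3a change was 1.13, with an adjusted p of 0.0395. Without the 2 microglia-rich libraries it was 0.78, with an adjusted p of 0.324 in edgeR. Scn3a was not called by limma-voom (adjusted p = 0.117) or with the replicate block in edgeR (0.103). Scn1a (Nav1.1, used most by inhibitory neurons) averaged 49.9 ± 39.1 CPM in co-cultures and 52.2 ± 28.6 CPM in neurons alone. The genes of Scn3a, Scn2a and Scn1a all lie on chromosome 2, within 65457118 to 66440840.

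As shares of the summed CPM of the 4 alpha genes, Scn3a made up 30.0 ± 13.7% in co-cultures and 11.2 ± 5.61% in neurons alone, and Scn2a 24.0 ± 7.39% in co-cultures and 36.4 ± 9.70% in neurons alone (SD, n = 8 each). The Scn3a share ran up to 56.4% in co-cultures and up to 19.2% in neurons alone, with overlap between the 2 sets. Scn8a took 26.5 ± 5.16% in co-cultures and 33.7 ± 7.14% in neurons alone, and Scn1a 19.4 ± 7.98% in co-cultures and 18.7 ± 12.4% in neurons alone. The shares sum to a whole, so they cannot move apart from each other, and no test was made on them.

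**Figure D2:**
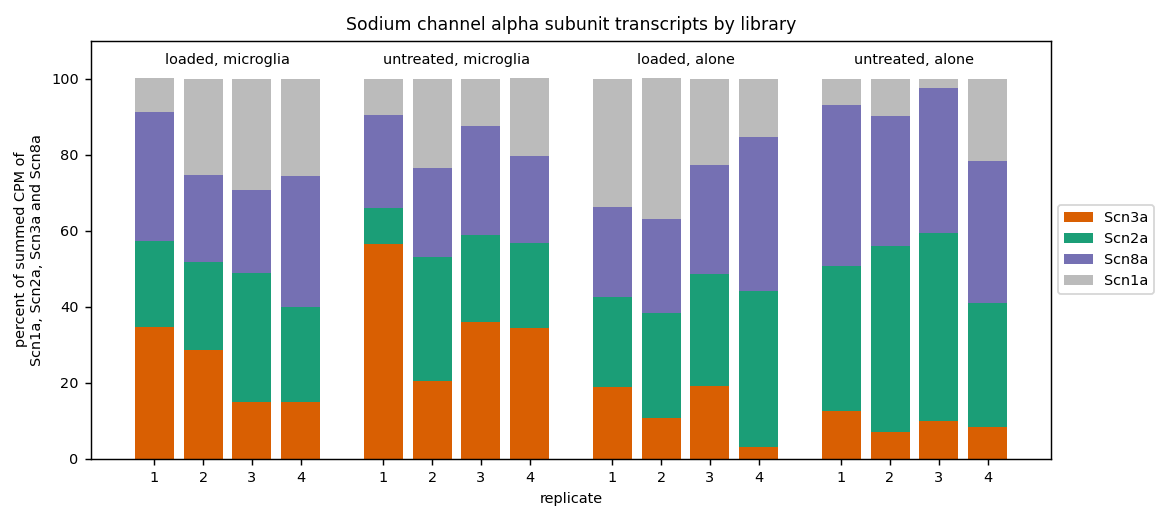
Share of each sodium channel alpha gene in their summed CPM (percent), one bar per library, in the 4 groups. Scn3a takes up to 56.4% in the 8 co-culture libraries and up to 19.2% in the 8 libraries of neurons alone.

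Calcium channel genes had the lowest median of the families, −1.19 on the log2 scale, with 12 of 15 lower in co-culture, against −0.03 and 51.4% lower over all tested genes. At an adjusted p of 0.05 none of the 15 was called; 5, all lower, had an unadjusted p under 0.05; among all tested genes 8.79% were lower at that level. Cacna2d1, the alpha2delta-1 subunit that carries the channel to the membrane and binds gabapentin, was the most abundant. It had 49.4, 14.7, 97.0 and 94.8 CPM in loaded co-cultures, 48.7, 162, 89.3 and 162 CPM in untreated co-cultures, 127, 41.0, 183 and 349 CPM in loaded neurons alone, and 164, 402, 315 and 448 CPM in untreated neurons alone. Every untreated co-culture lay below every untreated culture alone, and the loaded groups overlapped through 1 low culture alone. The log2 change was −1.49 ± 0.43, with an adjusted p of 0.0787 in edgeR, and it was similar with fibrils (−1.45 ± 0.61) and without (−1.52 ± 0.61). DESeq2 (adjusted p = 0.00742), limma-voom (0.0325) and the replicate block (0.0381) called it. In edgeR it was not called with library totals (adjusted p = 0.114) or without the filter on low counts (0.104). Without the 2 microglia-rich libraries the log2 change was −1.31, with an adjusted p of 0.207 in edgeR.

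Cacna1a, the pore of the P/Q-type channels that trigger release at most central synapses, had 27.3, 28.8, 78.5 and 83.2 CPM in loaded co-cultures, 41.4, 203, 177 and 18.9 CPM in untreated co-cultures, 31.6, 29.7, 60.2 and 207 CPM in loaded neurons alone, and 216, 294, 274 and 256 CPM in untreated neurons alone. Untreated neurons alone formed a high group. Untreated co-cultures and loaded neurons alone spread widely below it, and loaded co-cultures ran from 27.3 to 83.2 CPM. The log2 change in co-culture was −0.92 ± 0.50, with an adjusted p of 0.378 in edgeR.

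The remaining presynaptic pores followed: Cacna1b (N-type) averaged 24.8 ± 10.5 CPM in co-cultures and 61.7 ± 43.2 CPM in neurons alone, with a log2 change of −1.24 ± 0.44 and an adjusted p of 0.141 in edgeR, and Cacna1e (R-type) 41.7 ± 43.7 CPM in co-cultures and 50.6 ± 33.6 CPM in neurons alone. All 4 beta subunits, which hold the pore at the membrane and shape its gating, had negative fitted changes, with a median of −1.77. Cacnb3 averaged 16.4 ± 12.9 CPM in co-cultures and 47.9 ± 20.1 CPM in neurons alone, with a log2 change of −1.62 ± 0.50 and an adjusted p of 0.0896 in edgeR. Cacnb4 averaged 25.4 ± 22.4 CPM in co-cultures, where 2 libraries were at 0, and 102 ± 70.5 CPM in neurons alone. Its log2 change was −1.92 ± 0.89, with an adjusted p of 0.298 in edgeR. The 4 co-culture libraries lay below the 4 of neurons alone both with and without fibrils. The share of all tested genes that did so in both is not given here. The last 1000 bases of Cacnb4 also overlap A430018G15Rik.

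The L-type pores, which couple activity to transcription, had averaged changes near 0 made up of opposite fitted directions, none past the test: Cacna1d averaged 56.1 ± 33.6 CPM in co-cultures and 53.6 ± 26.4 CPM in neurons alone, with a log2 change of −0.01 ± 0.40, and Cacna1c 23.4 ± 17.1 CPM in co-cultures and 20.4 ± 17.8 CPM in neurons alone, with 0.22 ± 0.66. With fibrils the log2 change was −0.54 ± 0.56 for Cacna1d and −0.20 ± 0.94 for Cacna1c, and without fibrils 0.52 ± 0.56 and 0.64 ± 0.94. Chdh overlaps the 3′ end of Cacna1d on the opposite strand, and without a known strand setting the Cacna1d counts may include its reads. The T-type pores, which open at low voltage, were sparse, with Cacna1g at 14.7 ± 21.9 CPM in co-cultures and 24.7 ± 21.3 CPM in neurons alone and Cacna1i at 6.34 ± 8.08 CPM in co-cultures and 23.9 ± 21.9 CPM in neurons alone. Cacna2d2, a relative of Cacna2d1, averaged 26.7 ± 5.50 CPM in co-cultures and 26.6 ± 26.5 CPM in neurons alone, with a log2 change of 0.02 ± 0.57.

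Potassium channel genes lay lower in 47 of 65 cases, with a median of −0.82 and none called. At an unadjusted p under 0.05, 14 were lower and 1 higher, and over all members the counts were 22 lower (25.3%) and 2 higher, against 8.79% and 7.72% of all tested genes. Among the 24 Kcn genes with a mean of at least 20 CPM, 17 were lower, with a median of −0.74. Removing the 2 microglia-rich libraries left 51 of 65 lower with a median of −0.90. Scaling by library totals left 44 of 65 lower, with a median of −0.65 beside 0.18 for all genes.

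**Figure D3:**
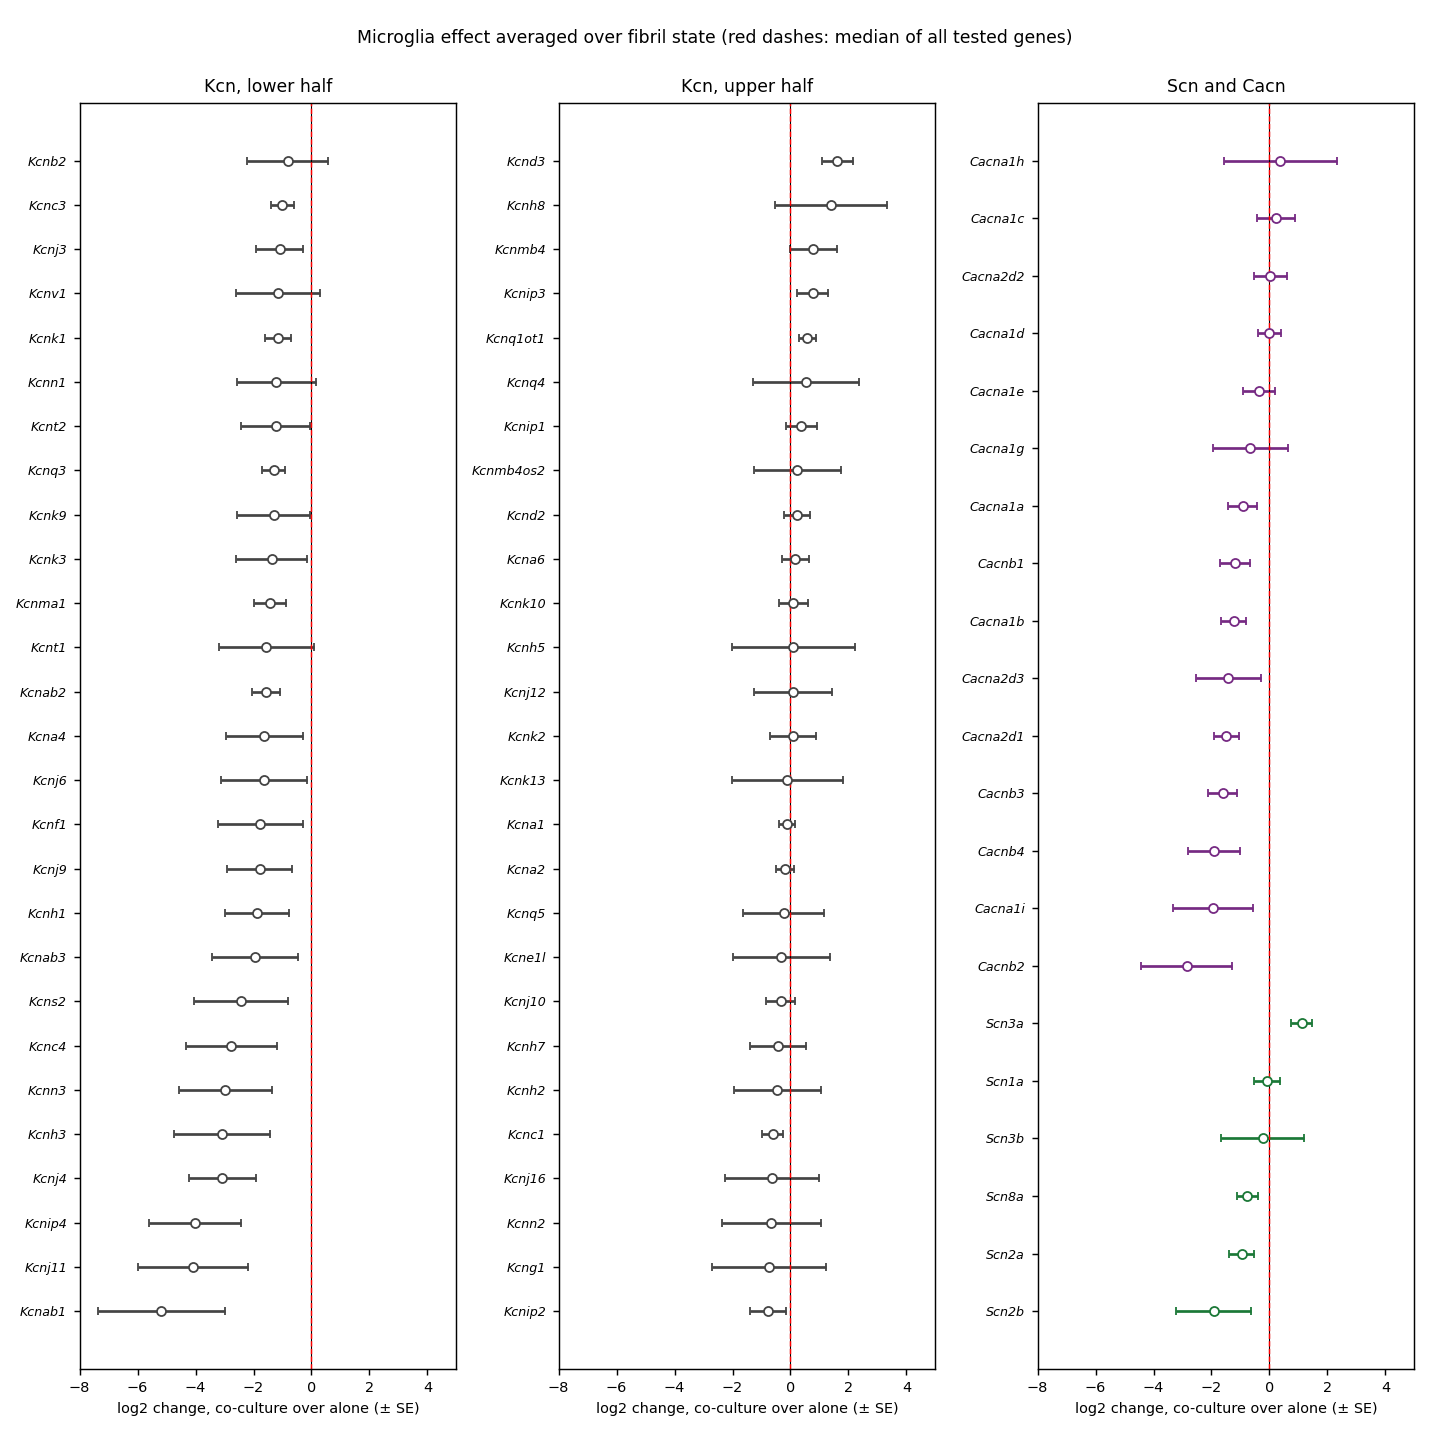
Fitted log2 change in co-culture over neurons alone, averaged over fibril state, for 75 of the 78 members with counts in every group (point, SE as bar). The red dashes mark the median of all tested genes at −0.03. Most points lie left of the line.

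The most abundant potassium channel gene was Kcnj10, with 254, 293, 118 and 639 CPM in loaded co-cultures, 449, 390, 84.4 and 1116 CPM in untreated co-cultures, 924, 942, 478 and 352 CPM in loaded neurons alone, and 938, 230, 173 and 229 CPM in untreated neurons alone. Libraries of every group ranged widely, and no pair of groups was parted. Its log2 change of −0.33 ± 0.50 had an adjusted p of 0.843 in edgeR. Next in level was Kcnq1ot1, a long non-coding RNA made from the opposite strand of the Kcnq1 locus, which silences neighbouring imprinted genes on the paternal chromosome and encodes no channel; its reads may include those of Kcnq1. It had 391, 270, 268 and 356 CPM in loaded co-cultures, 251, 1075, 305 and 290 CPM in untreated co-cultures, 145, 114, 234 and 255 CPM in loaded neurons alone, and 324, 446, 480 and 218 CPM in untreated neurons alone. The 4 loaded co-cultures lay above the 4 loaded cultures alone, the untreated groups overlapped, and the averaged log2 change was 0.58 ± 0.29, with an adjusted p of 0.318 in edgeR.

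Among pore subunits of the Kv1 to Kv4 type, which repolarise the spike, Kcna1 (Kv1.1) and Kcna2 (Kv1.2), both of axons, had fitted changes near 0. Kcna1 averaged 204 ± 83.9 CPM in co-cultures and 218 ± 83.1 CPM in neurons alone, with a log2 change of −0.12 ± 0.27, and Kcna2 74.9 ± 24.0 CPM in co-cultures and 84.3 ± 33.4 CPM in neurons alone, with −0.18 ± 0.31. The A-type genes differed in fitted direction. Kcnd3 (Kv4.3) averaged 56.4 ± 31.9 CPM in co-cultures and 18.4 ± 14.0 CPM in neurons alone, with a log2 change of 1.62 ± 0.53 and an adjusted p of 0.113 in edgeR, and all 4 loaded co-cultures lay above all 4 loaded cultures alone. Kcnd2 (Kv4.2) averaged 81.7 ± 45.3 CPM in co-cultures and 72.5 ± 38.4 CPM in neurons alone, with a log2 change of 0.22 ± 0.45. Kcnip3, a calcium-binding partner of Kv4 channels, averaged 61.5 ± 36.6 CPM in co-cultures and 35.7 ± 20.4 CPM in neurons alone, with 0.77 ± 0.54.

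The M-type genes, whose slow current holds neurons back from repeated firing, were led by Kcnq3, at 43.1 ± 18.3 CPM in co-cultures and 121 ± 87.9 CPM in neurons alone. Its log2 change was −1.30 ± 0.39, with an adjusted p of 0.0805 in edgeR; it was −0.68 ± 0.55 with fibrils and −1.93 ± 0.56 without, a difference whose own interaction estimate was 1.25 ± 0.77, with an adjusted p of 1.0. Kcnab2, a cytoplasmic beta subunit of Kv1 channels, averaged 15.3 ± 9.46 CPM in co-cultures and 46.3 ± 20.2 CPM in neurons alone, with −1.58 ± 0.48 and an adjusted p of 0.0838 in edgeR. Of the ether-a-go-go type, Kcnh1 averaged 14.9 ± 14.6 CPM in co-cultures and 56.0 ± 39.6 CPM in neurons alone, and Kcnh7 12.1 ± 9.39 CPM in co-cultures and 15.8 ± 6.42 CPM in neurons alone; the 3′ ends of both overlap another gene. The electrically silent subunits, which work only together with Kv2 pores, were low, led by Kcnf1 at 12.4 ± 15.3 CPM in co-cultures and 40.9 ± 40.0 CPM in neurons alone, and Kcns2 at 4.13 ± 7.49 CPM in co-cultures and 16.2 ± 22.8 CPM in neurons alone. The other non-coding RNA under a Kcn name, Kcnmb4os2, averaged 7.21 ± 6.10 CPM in co-cultures and 5.78 ± 6.42 CPM in neurons alone.

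Kcnma1, the large-conductance channel opened by calcium and voltage together, averaged 85.2 ± 69.5 CPM in co-cultures and 219 ± 114 CPM in neurons alone, with a log2 change of −1.44 ± 0.55 and an adjusted p of 0.201 in edgeR. Its neuronal partner Kcnmb4 averaged 18.8 ± 7.28 CPM in co-cultures and 19.9 ± 27.0 CPM in neurons alone, and shares its 3′ end with Kcnmb4os1. Of the tandem-pore channels that set the resting leak, Kcnk1 averaged 91.4 ± 71.7 CPM in co-cultures and 207 ± 110 CPM in neurons alone, with −1.15 ± 0.46 and an adjusted p of 0.218 in edgeR, while Kcnk10 averaged 53.6 ± 20.3 CPM in co-cultures and 48.8 ± 25.5 CPM in neurons alone, with 0.10 ± 0.49. Loaded co-cultures lay wholly below loaded neurons alone in Kcnk1, whose 3′ end overlaps Gm45875.

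Of the 9 inward rectifiers, 8 had a negative fitted change, with a median of −1.63. Kcnj4 (Kir2.3, a postsynaptic rectifier of forebrain neurons) averaged 15.4 ± 14.7 CPM in co-cultures and 132 ± 105 CPM in neurons alone, with a log2 change of −3.08 ± 1.16 and an adjusted p of 0.202 in edgeR. Kcnj13 was at 0 in all 8 co-culture libraries and averaged 1.83 CPM in neurons alone. It was also at 0 in 4 of the 8 libraries of neurons alone and met the rule only through the other 4, so no fold is given, and its 3′ end overlaps Gigyf2.

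Between single pairs of groups, no member was called with fibrils (0 of 87, against 0.114% of all tested genes) or without them (0 of 87, against 0.122%). At an unadjusted p under 0.05 in edgeR, 10 members passed with fibrils (11.7% of all tested genes did) and 16 without (9.10%); limma-voom called 1 and DESeq2 3 without fibrils, and both 0 with them. In untreated neurons the 4 co-cultures lay wholly below the 4 cultures alone in 13 members (14.9%), against 3.81% of all tested genes, and wholly above in 0, against 3.77%. The 13 were Cacna1a, Cacna2d1, Cacnb1, Cacnb3, Cacnb4, Kcnab2, Kcnc1, Kcnh1, Kcnip4, Kcnj3, Kcnj4, Kcnq3 and Scn8a. In loaded neurons 2 members lay wholly below, Cacnb4 and Kcnk1, against 2.91% of all tested genes, and 2 wholly above, Kcnd3 and Kcnq1ot1, against 3.41%. Over all 8 co-cultures and all 8 cultures alone no member was parted, against 0.601% of all tested genes.

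The comparison with fibrils and the one without share no library. The fitted change was negative in both for 52 of 87 members (59.8%), against 33.0% of all tested genes, and positive in both for 7 (8.05%), against 30.9%. With an unadjusted p under 0.05 in each there were 4 members, among them Cacna2d1, lower, and Scn3a and Kcnd3, higher, which is 4.60% of members against 3.11% of all tested genes. The interaction, which tests whether the microglia effect differs with fibrils, called 0 members and 0.0% of all tested genes in edgeR; 3 members had an unadjusted p under 0.05 (4.03% of all tested genes), DESeq2 called 1, Kcng4, and limma-voom 0. Its smallest p-values belonged to Kcnmb3, Kcna5 and Kcns3, each with at least 10 of 16 libraries at 0, and no size is given for them.

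**Figure D4:**
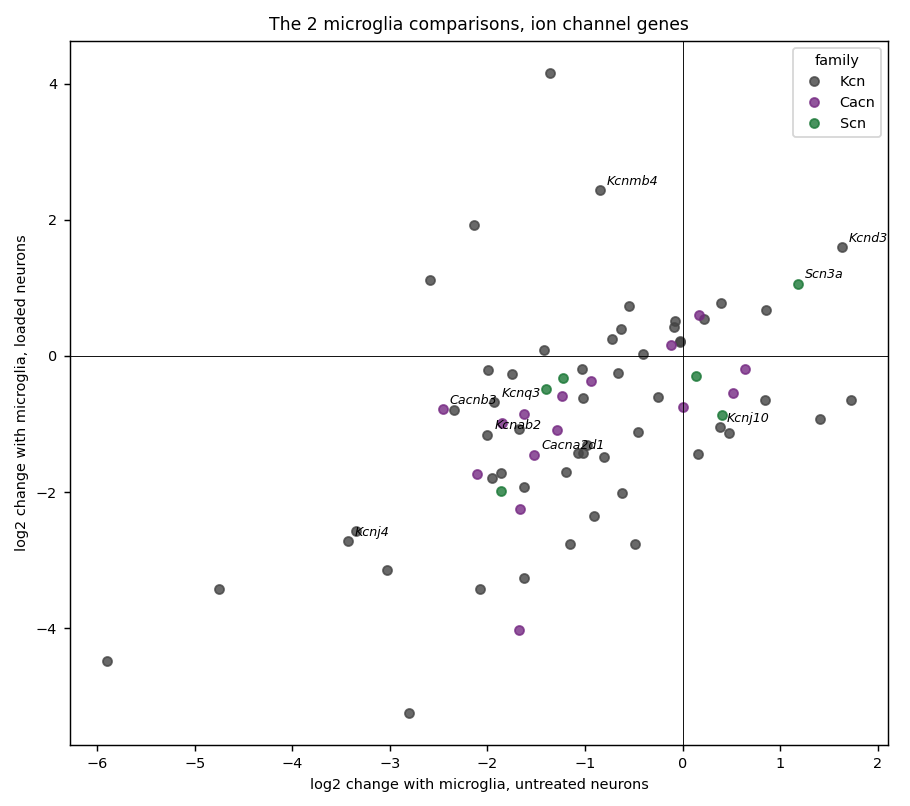
Fitted log2 change with microglia in loaded neurons (vertical) and in untreated neurons (horizontal) for 75 of the 78 members with counts in every group, coloured by family. Cacna2d1 lies in the lower left and Scn3a and Kcnd3 in the upper right, while Kcnq3 and Cacnb3 had larger fitted changes in untreated neurons.

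The second question was what α-synuclein fibrils do to channel transcripts. No member was called in the averaged comparison, in neurons alone, or in co-culture (0 of 87 each, and 0.0% of all tested genes in each). At an unadjusted p under 0.05 in edgeR, 10 members passed in the averaged comparison (6.62% of all tested genes did), 10 in neurons alone (6.92%) and 2 in co-culture (3.68%). DESeq2 called 1 member, the sparse Kcng4, in the averaged comparison and in co-culture, and limma-voom called none. Median log2 changes were −0.49 for Kcn, −0.58 for Scn and −0.47 for Cacn genes, beside −0.05 for all tested genes, and 45 of 65, 7 of 7 and 11 of 15 were lower in loaded cultures, against 53.4% of all tested genes. The Kcn lean was smaller among genes with a mean of at least 20 CPM, where 14 of 24 were lower with a median of −0.17. Of these 24, 21 were lower with fibrils in neurons alone (median −0.51) and 13 in co-culture (−0.07). At that level 50.6% of all tested genes were lower in neurons alone and 49.8% in co-culture. In the averaged comparison 5 of 5 Scn genes (median −0.83) and 8 of 11 Cacn genes (−0.42) at that level were lower. Sparse genes of any kind leaned lower, at 57.2% with a median of −0.18 over all tested genes under 20 CPM. By the rule, 8 members had 4 libraries at 10 counts among untreated but not among loaded cultures, and 2 the reverse. Neuron markers moved alongside, with 10 of 11 lower and a median of −0.88, and their part in this was not tested.

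The members with the smallest p in each family were Kcnq1ot1, Scn3a and Cacna1a. Kcns1, a silent subunit, came next among Kcn genes but was at 0 in 10 of 16 libraries, with 0.142 CPM on average in loaded and 4.08 CPM in untreated cultures. Kcnq1ot1 had a log2 change of −0.78 ± 0.29 in loaded cultures (adjusted p = 0.691 in edgeR), with medians of 262 CPM in loaded and 315 CPM in untreated cultures. With single libraries left out its change ranged from −0.88 to −0.39. Replicate 2 of untreated co-cultures had 1075 CPM, against 251 to 305 CPM in the others of that group. Scn3a had −0.95 ± 0.36 (adjusted p = 0.691 in edgeR), with a median of 34.0 CPM in loaded cultures and 46.4 CPM in untreated ones, so that it lay lower with fibrils and higher with microglia. Cacna1a had −1.34 ± 0.50 (adjusted p = 0.691 in edgeR), with medians of 45.9 CPM in loaded and 210 CPM in untreated cultures. In neurons alone, Cacna1a, Kcnmb4 and Scn3a were the members whose 4 loaded libraries lay below the 4 untreated ones, which is 3.45% against 2.22% of all tested genes; 0 lay wholly above, against 1.96%. In co-culture Kcnk10 alone lay wholly higher in loaded libraries, 1.15% against 0.906% of all tested genes, and 0 lay wholly lower, against 1.04%. Over the 8 loaded and 8 untreated libraries no member was parted, against 0.0152% of all tested genes.

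Channel levels were also read beside neuron content. Summed Cacn levels were 443 ± 237 CPM in co-cultures and 924 ± 442 CPM in neurons alone, Scn levels 290 ± 162 CPM in co-cultures and 468 ± 220 CPM in neurons alone, and Kcn levels 2152 ± 519 CPM in co-cultures and 3010 ± 596 CPM in neurons alone (SD, n = 8 each). Per 100 CPM of the 11 neuron markers, Cacn genes gave 23.2 ± 7.19 CPM in co-cultures and 21.2 ± 4.18 CPM in neurons alone. Scn genes gave 15.3 ± 4.95 CPM in co-cultures and 11.2 ± 2.94 CPM in neurons alone. Coding Kcn genes other than the glial Kcnj10 gave 75.9 ± 18.1 CPM in co-cultures and 55.8 ± 17.3 CPM in neurons alone. Which cells made the RNA of this remaining Kcn set was not tested, so its ratio is not a value per neuron. Ranges overlapped in each family. Within loaded cultures, the Cacn value was 19.4 ± 5.06 CPM in co-cultures and 20.4 ± 4.79 CPM in neurons alone, and within untreated ones 26.9 ± 7.58 CPM in co-cultures and 22.0 ± 4.02 CPM in neurons alone (SD, n = 4 each). Scn genes gave 13.6 ± 3.58 CPM in loaded co-cultures and 10.7 ± 2.58 CPM in loaded neurons alone. Untreated, they gave 17.0 ± 6.08 CPM in co-cultures and 11.7 ± 3.57 CPM in neurons alone. The same Kcn set gave 78.1 ± 6.74 CPM in loaded co-cultures and 64.1 ± 20.7 CPM in loaded neurons alone. Untreated, it gave 73.7 ± 26.5 CPM in co-cultures and 47.4 ± 9.0 CPM in neurons alone. Of the 11 neuron markers, 9 were lower in co-culture, with a median log2 change of −1.76. Map2 differed little by group mean, at 754 CPM in loaded and 657 CPM in untreated co-cultures. In neurons alone it was at 663 CPM when loaded and 725 CPM when untreated. The summed list averaged 1870 CPM in co-cultures and 4535 CPM in neurons alone, so Map2 weighed more in the co-culture ratios. The ratios rest on that one list, and the excitatory markers differed more between the groups. The part of neuron content in the channel levels was not tested.

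**Figure D5:**
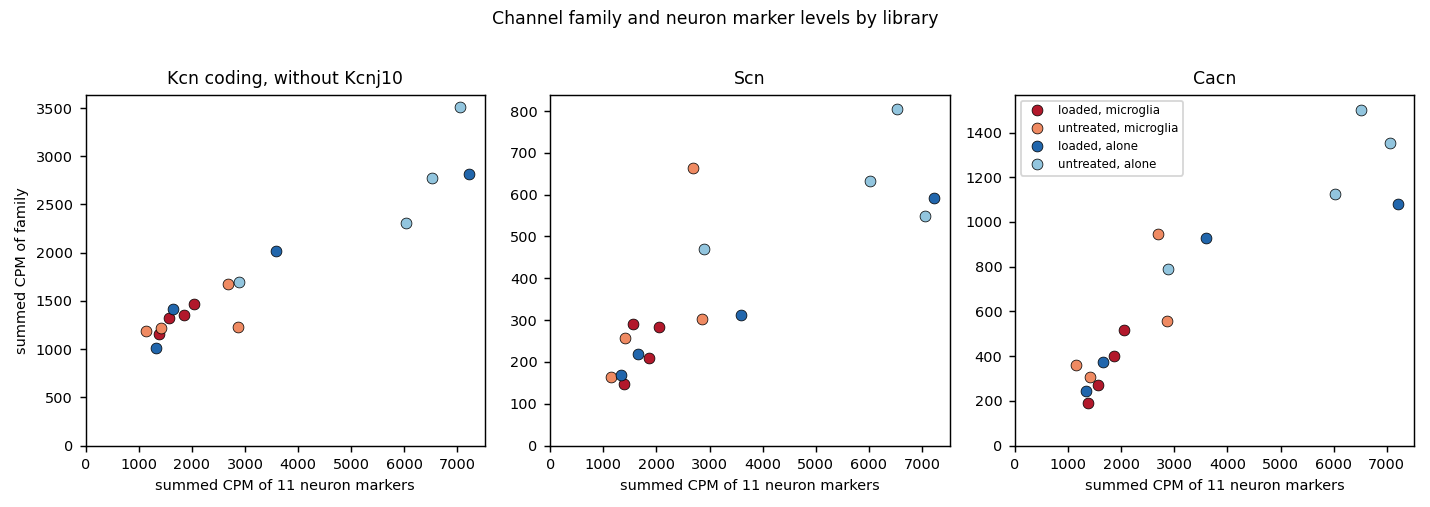
Summed CPM of coding Kcn genes without Kcnj10, of Scn genes and of Cacn genes (vertical) against summed CPM of 11 neuron markers (horizontal), one point per library, coloured by group. The 8 co-culture libraries lie between 1144 and 2866 CPM of neuron markers and the 8 of neurons alone between 1336 and 7215 CPM.

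Genes that work beside the channels were read from 3 lists. These lists, like the members, were chosen with earlier results known. In the averaged microglia comparison 4.65% of tested partners and anchors, 2.70% of other cation channels and 21.7% of ion pumps and exchangers were called. Over all tested genes the share was 2.19%. Of 43 tested channel partners and anchors, 2 were called in the averaged microglia comparison: Cacng4, an auxiliary gamma subunit of calcium channels and AMPA receptors, rose to 594 ± 138 CPM in co-cultures, against 168 ± 61.8 CPM in neurons alone (log2 change 1.82 ± 0.24, adjusted p = 0.000385 in edgeR), and Dlg4, the postsynaptic scaffold PSD-95, fell to 129 ± 48.7 CPM in co-cultures, against 428 ± 238 CPM in neurons alone (−1.72 ± 0.37, adjusted p = 0.0189). Of 37 other cation channels, 1 was called: Itpr2, a calcium release channel of the endoplasmic reticulum, rose by 1.35 ± 0.34 (adjusted p = 0.0393 in edgeR). Of 23 ion pumps and exchangers, 5 were called. Among them, the sodium pump subunit Atp1b1 fell, with a log2 change of −1.84 ± 0.38, as did Atp2b2, a calcium pump of the plasma membrane, with −2.20 ± 0.51, and the pump regulator Fxyd7, with −2.55 ± 0.64. Fxyd6, a further pump regulator, rose by 1.59 ± 0.28. Adjusted p-values of the genes named were 0.00346 to 0.0356 in edgeR.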

How the data were processed

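For 16 libraries the authors deposited a table of raw counts by gene symbol, made with the QuantSeq forward 3′ kit per the labels' protocols, and a second table of normalized values, treated as a score and used only for a check: 99.97% of its entries lay within 0.6 of the count times a constant per library. STAR, Partek, DESeq2 and the build mm10 are named, without versions, per the submitters' processing notes. The counter, its strand setting and annotation are not given in the sources used here.

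Genes were filtered with filterByExpr (minimum count 10, total 15), leaving 13139 with all 87 members, scaled by TMM and fitted by group means over all 16 libraries with the robust quasi-likelihood method of edgeR 4.0.16 (R 4.3.3). Adjustment was Benjamini-Hochberg over all tested genes in each of 7 contrasts. SE is the log2 change over the root of F. CPM used TMM factors, and CPM summed over lists used all genes before the filter. Python 3.11.15 with pandas 2.3.3 and matplotlib 3.10.9 made tables and plots. Gene positions come from GENCODE M21 (GRCm38), promoters from RefSeq. The tests were tested on simulated data. Total counts were 6511516 to 13986374, and Rn45s took 9.35 to 26.8% of them. Reads can be PCR copies of one molecule, and intervals from counts leave that out.

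Alternatives were DESeq2 1.42.0, limma-voom 3.58.1, other scalings, no filter, a replicate block, the contrast's own libraries, and leaving libraries out. Members and lists were chosen with earlier results of these data known. Results of some genes that the rule below covers are not reported here. Named genes were, by rule, called members, members parted over 8 and 8 libraries, the 10 Kcn, 5 Scn and 5 Cacn genes of highest mean CPM, those with the smallest p (2 per family in the averaged contrasts, 3 in the interaction), and the 2 most abundant per role class. Cacna1b, Scn3b, Kcng4, Kcnj13, members at the edge of the rule and members parted over 4 and 4 libraries were named after their values were seen.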

Additional observations from a re-analysis of the deposited data

Results flagged for a closer look

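Per-library values of 7 members were checked in their 28 groups of 4 libraries, and 3 libraries stood far from the others of their group. The rule flags about 1 in 20 groups by chance if values are normally distributed. That was not checked for these CPM, so the number of flags cannot be set against that rate. Kcnj10 had 938 CPM in replicate 1 of untreated neurons alone, where the other 3 libraries had 173 to 230 CPM. Kcnq1ot1 had 1075 CPM in replicate 2 of untreated co-cultures, against 251 to 305 CPM in the others. Scn2a had 176 CPM in replicate 4 of loaded neurons alone, against 33.8 to 56.4 CPM in the others. That last library also had the highest sum of neuron markers in its group, 7215 CPM against 1336 to 3589 CPM, and the part of this in the Scn2a value was not tested.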

How the results depend on the processing

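The number of members called in the averaged microglia comparison, 1 by edgeR, was 10 in DESeq2, 4 in limma-voom, 2 with library totals and 0 without the 2 co-culture libraries numbered replicate 1; it ranged from 0 to 3 when single libraries were left out. With the replicate block it was 2 (Cacna2d1 among them). The labels do not say what the numbers share, and they were not taken as pairs: same-numbered libraries correlated at −0.111 to 0.217, while 9 of 16 correlated best with their own number, a hint of pairing from the data. Without fibrils the number, 0 by edgeR, was 3 in DESeq2 and 1 in limma-voom. For fibrils it was 1 in DESeq2 in the averaged comparison, 1 in co-culture and 1 in the interaction. For fibrils in neurons alone it ranged from 0 to 1, with Kcnq3 called when replicate 4 of the loaded cultures was left out. It stayed at 0 to 0 in each of the other comparisons when single libraries were left out. Medians of the families kept their sign under all alternatives run. With single libraries left out they ranged, for microglia, from −1.17 to −0.48 (Kcn), −0.99 to −0.37 (Scn) and −1.37 to −0.92 (Cacn), and for fibrils from −0.72 to −0.29, −0.78 to −0.36 and −0.77 to −0.22. Of the comparisons of named genes under alternatives, 1097 kept their side of the threshold, 16 gained a call and 12 lost it. With the spread between libraries seen here (biological coefficient of variation 1.17), a missed threshold does not show that a level did not differ; the cause of the differences between tools was not tested.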
